A study of Bos taurus with 30 samples.

Results

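Bovine endometrial stromal cells that had been perfused with 10 ng/mL insulin were compared with stromal cells given the vehicle, gene by gene, in 6 RNA-sequencing libraries of the 30 in the series. The members are the 3 stromal libraries labelled 10 ng/mL insulin and the 3 labelled vehicle, and each insulin library was paired with the vehicle library of the same replicate number. The cells were isolated from the uterus of cows that were not pregnant and had recently ovulated (early luteal phase) and were grown in an endometrium-on-a-chip, a microfluidic device with epithelial cells in the upper chamber and stromal-enriched cells on the underside of a porous membrane below them. Both groups received medium with 5 mM glucose under flow for 72 hours, and the only labelled difference between them was insulin at 10 ng/mL or its acid vehicle. The stromal cells were an enriched primary population and not a purified line, and they shared the device with living epithelial cells, which were also exposed to insulin.

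Insulin binds the insulin receptor and, more weakly, the IGF1 receptor, and signals through IRS adaptors to PI3 kinase, AKT and mTOR. In many tissues this pathway retains FOXO factors in the cytoplasm, so that FOXO targets are transcribed less, and it raises the transcription of lipid synthesis and glycolysis genes. Endometrial stromal cells are the fibroblasts under the uterine epithelium: they make collagens, IGF-binding proteins and growth factors, and they carry the progesterone and estrogen receptors through which the ovary controls the uterus.

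The libraries held between 9229446 and 13214728 counted reads, so that 3 reads, the limit that a count of 0 allows, stood for 0.227 to 0.325 CPM (counts scaled to a library total of 1000000). All 27 stromal markers were detected in each of the 6 libraries. The mesenchymal filament gene VIM stood at 3789 to 4128 CPM with vehicle and 4024 to 4047 CPM with insulin, and PDGFRA, the PDGF receptor of fibroblasts, stood at 542 to 803 CPM with vehicle and 603 to 850 CPM with insulin. The 12 smooth muscle and pericyte markers summed to 4893 to 7233 CPM with vehicle and 5238 to 7184 CPM with insulin, and of their defining genes DES was present at 106 to 658 CPM, whereas MYH11 did not exceed 4.01 CPM and RGS5 did not exceed 1.90 CPM. The 10 of 12 endothelial markers matched in the table summed to 4.01 to 9.05 CPM with vehicle and 4.42 to 7.11 CPM with insulin, with PECAM1 at or below 0.227 CPM. The 6 of 16 immune markers matched summed to 4.44 to 7.26 CPM with vehicle and 3.86 to 6.72 CPM with insulin, with CD14 at 1.45 to 1.84 CPM. In bulk RNA, fewer cells of a type and less RNA per cell cannot be told apart.

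Epithelial transcripts were high in single libraries, 1 in each group. The summed level of the 30 epithelial markers in the table was 51.1, 529 and 55.5 CPM in vehicle replicates 1, 2 and 3, and 467, 49.9 and 90.3 CPM in the 10 ng/mL replicates 1, 2 and 3. In the 3 stromal libraries given 1 ng/mL insulin it was 46.2, 51.2 and 58.8 CPM. Vehicle replicate 2 and 10 ng/mL replicate 1 therefore stood apart, in opposite arms and in different pairs.

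**Figure D1:**
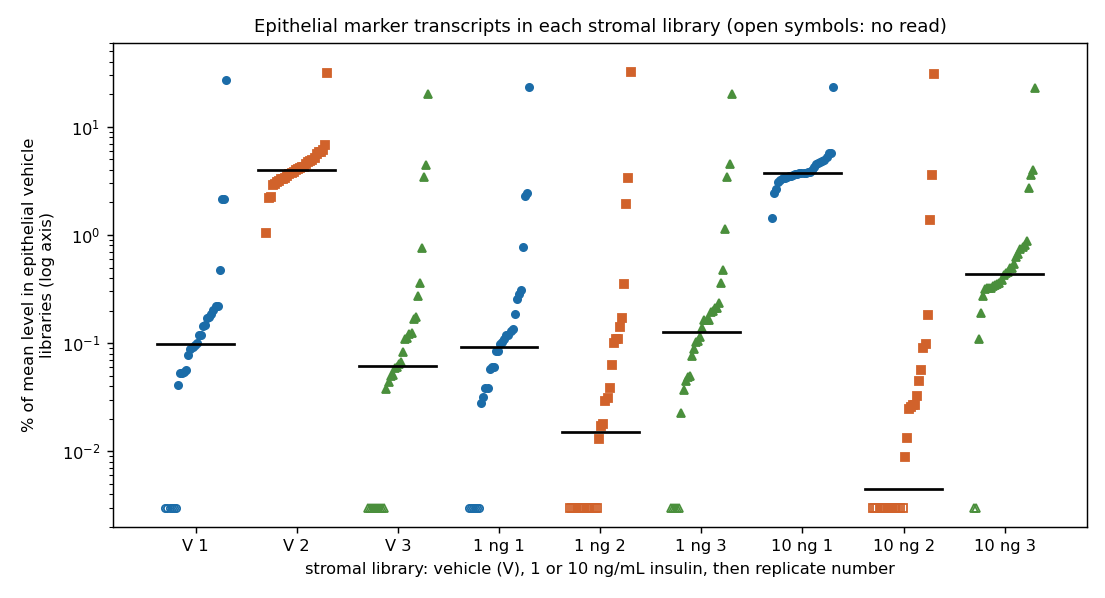
Each of 30 epithelial markers in the 9 stromal libraries of the insulin experiment, its level drawn as a percent of its mean in the epithelial vehicle libraries (log axis); black bars are medians and open symbols mark genes with no read. The median was 4.03% in vehicle replicate 2 and 3.74% in 10 ng/mL replicate 1, 0.433% in 10 ng/mL replicate 3, and at most 0.127% in the other 6 libraries.

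In both of those libraries the middle 50% of the markers lay within a narrow share of their epithelial level, 3.30% to 4.91% in vehicle replicate 2 and 3.45% to 4.56% in 10 ng/mL replicate 1. KRT19, a simple-epithelium keratin, was at 3.67, 65.5 and 2.17 CPM with vehicle and 74.9, 0.175 and 6.82 CPM with 10 ng/mL insulin, against 1976 CPM in the epithelial vehicle libraries. KRT8 was at 0.525, 57.8 and 0.433 CPM with vehicle and 33.5, 0.263 and 2.69 CPM with insulin. KRT7 was at 1.31, 53.2 and 0.542 CPM with vehicle and 52.7, 0.351 and 4.80 CPM with insulin. For these keratins the replicate that was high in a group was replicate 2 with vehicle and replicate 1 with insulin, and the groups overlapped. WFDC2, a secreted protease inhibitor, reached 45.0 CPM in vehicle replicate 2 and 37.99 CPM in 10 ng/mL replicate 1, and the membrane protease inhibitor SPINT2 reached 34.8 and 28.9 CPM in those libraries. SPINT2 was also present at 11.0 to 18.2 CPM in the other 4 libraries, and the tight-junction gene MARVELD2 was at 18.6 to 29.6 CPM in all 6.

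The defining epithelial genes repeated the pattern. The adhesion protein EPCAM was at 0.700, 22.2 and 0.325 CPM with vehicle and at 17.7, 0 and 1.54 CPM with insulin. The keratin KRT18 was at 0.787, 34.4 and 0 CPM with vehicle and at 16.1, 0.0877 and 1.25 CPM with insulin. E-cadherin, CDH1, was at 0.525, 16.9 and 0.325 CPM with vehicle and at 21.6, 0.175 and 2.11 CPM with insulin. None of the 30 markers was at 0 in vehicle replicate 2 or 10 ng/mL replicate 1, whereas 15 were at 0 in 10 ng/mL replicate 2.

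Across genes, no protein-coding gene passed the test for a difference between 10 ng/mL insulin and vehicle. The paired edgeR quasi-likelihood test covered 12779 genes, of which 12290 were protein-coding, and called 0 of the latter (0%) at an adjusted p below 0.05 with a log2 fold change beyond 0.1. The smallest adjusted p was 0.999. At an unadjusted p below 0.05 there were 336 protein-coding genes, 211 higher (1.72% of those tested) and 125 lower (1.02%). DESeq2 with the same pairs also called 0 genes and had 20 at an unadjusted p below 0.05. Without the pairing, edgeR called 0 genes and had 37 at an unadjusted p below 0.05.

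Most genes were measured closely enough to bound the change. The 95% interval of the log2 fold change lay within -1 and 1 for 11553 of the protein-coding genes (94.0%), and for 99.7% of the 8249 genes at 10 CPM or more. The median standard error (SE) was 0.0959 on the log2 scale. Between libraries, the replicate number accounted for 66.0% of the variance of log2 levels and the insulin dose for 5.58%. Without the genes enriched in epithelial cells, defined below, these shares were 79.3% and 6.52%.

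The study reported IGFBP6 and STRA6 as altered in this comparison from these samples, so their direction here is not independent evidence. It used paired DESeq2 with cut-offs of P below 0.05 and a log2 fold change beyond 0.1. Its methods do not state whether that P was adjusted, so the thresholds may be unlike. With edgeR here both genes had an unadjusted p below 0.05, and neither passed the adjusted p threshold. IGFBP6 (ENSBTAG00000021467) encodes an IGF-binding protein with a preference for IGF2. It stood at 233, 309.9 and 277 CPM in vehicle replicates 1 to 3 and at 258, 330.2 and 329 CPM with 10 ng/mL insulin. The level was higher with insulin in 3 of 3 pairs, and the ranges of the groups overlapped (273 ± 38.6 and 306 ± 41.5 CPM, mean ± SD, n = 3 each). The log2 fold change was 0.17 (SE 0.052, 95% interval 0.05 to 0.29, unadjusted p = 0.0105, edgeR adjusted p = 0.999). In the 1 ng/mL libraries IGFBP6 was at 248, 273 and 300.3 CPM.

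STRA6 (ENSBTAG00000007348), the membrane receptor that takes up retinol from its plasma carrier, stood at 546, 681 and 445 CPM with vehicle and at 583, 738 and 584 CPM with 10 ng/mL insulin. It was higher in 3 of 3 pairs, with overlapping groups (557 ± 118 and 635 ± 89.2 CPM, mean ± SD, n = 3 each). The log2 fold change was 0.21 (SE 0.070, 95% interval 0.05 to 0.36, unadjusted p = 0.0167, edgeR adjusted p = 0.999). With 1 ng/mL insulin STRA6 was at 683, 610.4 and 534 CPM. For both genes the range over replicates within each group was larger than the difference within any pair.

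**Figure D2:**
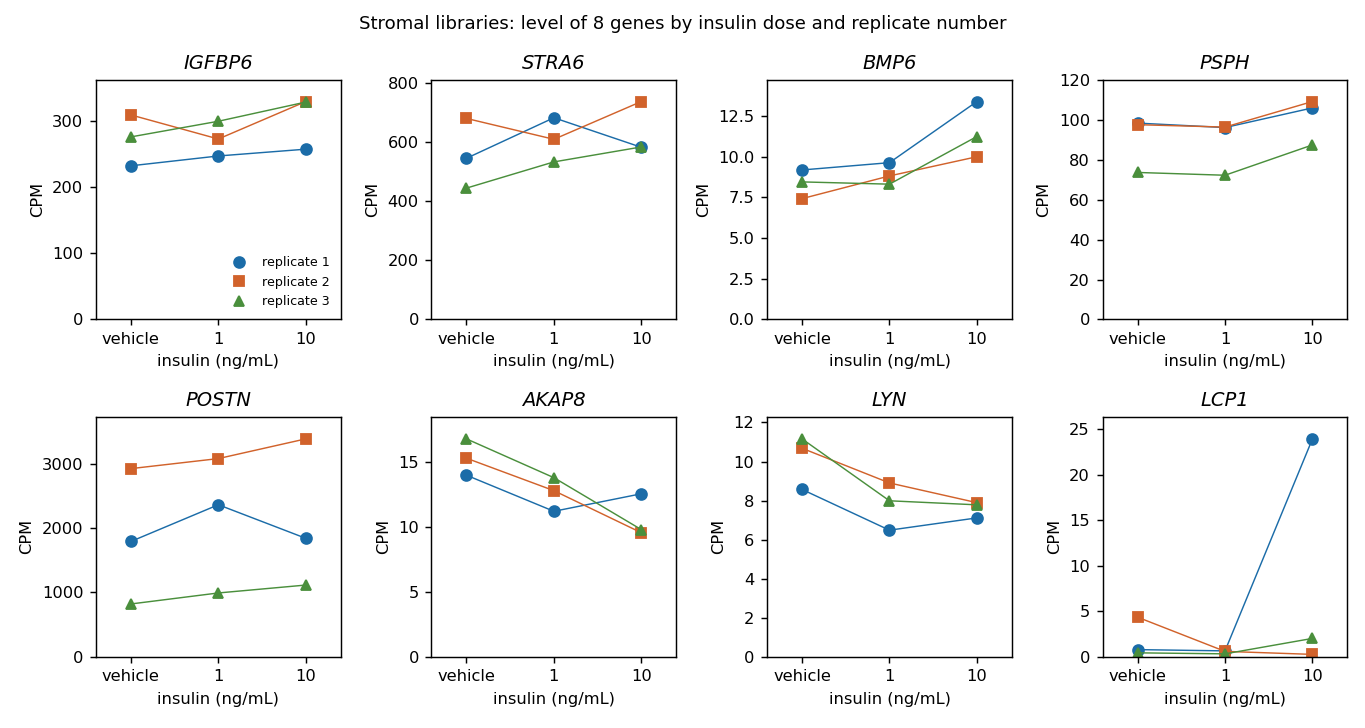
CPM of 8 genes in the stromal libraries by insulin dose, with 1 line and symbol per replicate number. IGFBP6, STRA6, BMP6, PSPH and POSTN were higher with 10 ng/mL insulin than with vehicle in each of the 3 pairs, AKAP8 and LYN were lower in each, and LCP1 was highest in vehicle replicate 2 (4.34 CPM) among the vehicle libraries and in 10 ng/mL replicate 1 (23.9 CPM) among the insulin libraries.

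The 10 protein-coding genes with the smallest unadjusted p among those higher with insulin and at 5 CPM or more were BMP6, MT-ATP8, DNAJC15, S1PR2, RCN3, DPT, SERPINF1, PTPRN, EVA1B and GRIN2D. None was called, and each was higher in 3 of 3 pairs, as were 1441 protein-coding genes in all (11.7%). BMP6 (ENSBTAG00000019234), a bone morphogenetic protein, was at 9.18, 7.42 and 8.45 CPM with vehicle and at 13.4, 10.0 and 11.2 CPM with insulin. Its groups did not overlap, which held for 1.48% of protein-coding genes in this direction after TMM scaling, and the log2 fold change was 0.47 (SE 0.11, unadjusted p = 0.00297). DNAJC15, a mitochondrial co-chaperone, was at 11.5, 10.6 and 8.23 CPM with vehicle and at 15.6, 12.4 and 12.1 CPM with insulin, again without overlap (log2 fold change 0.41, SE 0.11).

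S1PR2, a receptor for sphingosine-1-phosphate, was at 50.9, 58.2 and 54.8 CPM with vehicle and at 56.0, 66.8 and 69.0 CPM with insulin (log2 fold change 0.23, SE 0.062). RCN3, an endoplasmic reticulum protein of the collagen secretory route, was at 71.5, 84.7 and 89.3 CPM with vehicle and at 82.6, 91.7 and 104 CPM with insulin (log2 fold change 0.18, SE 0.050). DPT, a matrix protein that binds decorin, was at 0.700, 7.06 and 4.55 CPM with vehicle and at 2.04, 9.82 and 7.59 CPM with insulin (log2 fold change 0.80, SE 0.22). In these 3 genes the groups overlapped. SERPINF1, which encodes the secreted protein PEDF, had a log2 fold change of 0.19 (SE 0.052), PTPRN of 0.20 (SE 0.055), EVA1B of 0.25 (SE 0.070) and the glutamate receptor subunit GRIN2D of 0.24 (SE 0.069).

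The 10 genes chosen in the same way among those lower with insulin were AKAP8, RPL9, ZNF205, ANKRD10, DYSF, TAOK2, GEMIN5, PLEKHF1, LYN and ZNF805. None was called, and each was lower in 3 of 3 pairs, as were 11.4% of protein-coding genes. AKAP8 (ENSBTAG00000001807), a nuclear anchoring protein for protein kinase A, was at 14.0, 15.3 and 16.8 CPM with vehicle and at 12.6, 9.56 and 9.80 CPM with insulin. The groups did not overlap, as for 1.77% of protein-coding genes in this direction after TMM scaling, and the log2 fold change was -0.52 (SE 0.13, unadjusted p = 0.00313). LYN, a SRC-family kinase, was at 8.57, 10.7 and 11.2 CPM with vehicle and at 7.11, 7.89 and 7.78 CPM with insulin (log2 fold change -0.40, SE 0.13). PLEKHF1, an endosomal phosphoinositide-binding protein, was at 14.6, 14.7 and 14.1 CPM with vehicle and at 12.1, 12.6 and 9.41 CPM with insulin (log2 fold change -0.34, SE 0.11). LYN, PLEKHF1 and ZNF205 did not overlap between the groups either.

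The zinc finger genes ZNF205 and ZNF805 had log2 fold changes of -0.32 (SE 0.085) and -0.31 (SE 0.097), and the stress-activated kinase TAOK2 one of -0.19 (SE 0.061). GEMIN5, a subunit of the SMN complex that assembles spliceosomal particles, had a log2 fold change of -0.30 (SE 0.093), and ANKRD10 one of -0.23 (SE 0.066). DYSF, a membrane repair protein, was at 24.8, 1.72 and 3.58 CPM with vehicle and at 16.6, 1.14 and 2.79 CPM with insulin, so that replicate 1 was high in both groups. The ribosomal protein gene RPL9, at 11.8 to 22.4 CPM with overlapping groups on this scale, belongs to a family with near-identical copies and its count is uncertain.

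The largest fold changes belonged to genes at low level or to epithelial transcripts. Of the 15 protein-coding genes with a log2 fold change beyond 1 in either direction, 6 were at least 10 times higher in epithelial than in stromal libraries at 5 mM glucose, the definition of epithelial-enriched used here, and 4 had a mean of 5 CPM or more. LCP1, an actin-bundling protein, had the largest positive log2 fold change, 1.47 (SE 1.3), with 0.787, 4.34 and 0.433 CPM with vehicle and 23.9, 0.263 and 2.02 CPM with insulin. EDNRB, an endothelin receptor, was at 1.40, 30.1 and 2.71 CPM with vehicle and at 5.98, 0.351 and 2.11 CPM with insulin (log2 fold change -1.17, SE 1.2). Both were epithelial-enriched, and their SE was as large as the fold change or nearly so.

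The other genes with the largest folds were below 7 CPM in all 6 libraries. COLEC12, a scavenger receptor, was at 0.787, 0.362 and 2.38 CPM with vehicle and at 1.29, 1.40 and 6.34 CPM with insulin (log2 fold change 1.32, SE 0.31, unadjusted p = 0.00252, the smallest of a protein-coding gene). TTC39C had a log2 fold change of 1.19 (SE 0.31) and DCAF16 one of 1.18 (SE 0.49). On the lower side were C17H5orf52 at -1.70 (SE 0.49), TBR1 at -1.56 (SE 0.50), the phosphatase gene DUSP22 at -1.13 (SE 0.34) and RHBDL1 at -1.06 (SE 0.45). DUSP22 was at 1.49, 1.36 and 1.52 CPM with vehicle and at 0.681, 0.614 and 0.672 CPM with insulin, a difference of less than 1 CPM. In these libraries 3 reads stood for 0.227 to 0.325 CPM, so the small spread inside either group rests on few reads.

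The genes through which insulin acts were present, and none was called. Among IGF ligands, IGF2 was at 135, 37.6 and 170.4 CPM with vehicle and at 127, 38.5 and 149.8 CPM with insulin (log2 fold change -0.09, SE 0.057). Of 7 tested binding proteins, 6 had a log2 fold change above 0, with a median of 0.03 and a range of -0.00147 to 0.19. IGFBP7 was at 505, 517 and 483 CPM with vehicle and at 516, 573 and 469 CPM with insulin. IGFBP5 was at 24.0, 94.2 and 9.64 CPM with vehicle and at 20.2, 71.2 and 19.1 CPM with insulin. IGFBP5 was thus lower in pairs 1 and 2 and higher in pair 3, and its log2 fold change was -0.00147 (SE 0.22).

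Neither receptor was called. INSR, the insulin receptor, was at 27.4, 22.1 and 28.4 CPM with vehicle and at 27.0, 23.3 and 28.5 CPM with insulin (log2 fold change 0.03, SE 0.082). IGF1R, the IGF1 receptor, was at 230.0, 184 and 216 CPM with vehicle and at 211, 193 and 191 CPM with insulin (log2 fold change -0.07, SE 0.059). IRS1 had a log2 fold change of -0.06 (SE 0.071) and IRS2, whose transcription insulin lowers in liver, one of 0.08 (SE 0.18). Of 34 tested members of the insulin receptor pathway, 0 had an unadjusted p below 0.05, 15 lay above 0 (44.1%, against 49.5% of all protein-coding genes tested), and the log2 fold changes ran from -0.16 to 0.21 with a median of -0.03, against -0.00141 for all protein-coding genes. The pathway inhibitor TRIB3 was at 57.2, 46.1 and 47.6 CPM with vehicle and at 61.8, 52.9 and 47.9 CPM with insulin (log2 fold change 0.11, SE 0.063), and RPTOR, the scaffold of mTOR complex 1, had a log2 fold change of -0.12 (SE 0.066).

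FOXO targets and lipid and sugar metabolism genes had medians near 0, and none was called. The median log2 fold change of 21 FOXO factors and targets was 0.000579, and 1 of them had an unadjusted p below 0.05: CITED2, a transcriptional coregulator, was at 177, 284 and 399.5 CPM with vehicle and at 164, 273 and 340.0 CPM with insulin (log2 fold change -0.13, SE 0.052). The thioredoxin inhibitor TXNIP was at 24.9, 37.8 and 43.9 CPM with vehicle and 30.1, 37.4 and 51.1 CPM with insulin (log2 fold change 0.16, SE 0.080). Replicate 2 was level on this scale and higher after TMM scaling. Sterol and fatty acid synthesis genes had a median of -0.03, with 8 of 32 above 0 (25%, against 49.5% of all protein-coding genes tested). Their medians differed in sign between pairs, at 0.00431, -0.0579 and 0.0376 in pairs 1, 2 and 3. FASN, fatty acid synthase, was at 212, 237 and 196 CPM with vehicle and at 224, 203 and 198 CPM with insulin. NR1H3, which encodes the sterol-sensing receptor LXR alpha, was the member of that list with the smallest p (log2 fold change 0.22, SE 0.089, unadjusted p = 0.0384), at 16.6, 18.6 and 18.1 CPM with vehicle and 20.7, 22.3 and 18.8 CPM with insulin, without overlap. Glucose transport and glycolysis genes had a median of -0.03, with 7 of 27 above 0 (25.9%, against the same 49.5%). By pair their median was 0.064, -0.0307 and -0.0882. GPI, glucose-6-phosphate isomerase, had a log2 fold change of -0.12 (SE 0.053).

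Amino acid synthesis and ATF4 target genes lay above 0 for 19 of 20 tested members (95%, against 49.5% of all protein-coding genes), and none was called. Their median log2 fold change was 0.09, and by pair the median was 0.07, 0.09 and 0.125. An unadjusted p below 0.05 was reached by 5 members, all higher (1.72% of all protein-coding genes were), and 7 were higher in 3 of 3 pairs (11.7% of all). This list and the others were drawn up with earlier results of these data known, so such shares are not independent evidence. PSPH, the last enzyme of serine synthesis, was at 98.6, 97.8 and 73.8 CPM with vehicle and at 106, 109 and 87.6 CPM with insulin (log2 fold change 0.18, SE 0.054, unadjusted p = 0.0108). MTHFD2, a mitochondrial enzyme of one-carbon metabolism, was at 38.3, 34.6 and 34.5 CPM with vehicle and at 50.2, 39.4 and 36.1 CPM with insulin (log2 fold change 0.23, SE 0.079). Its groups overlapped on this scale, with vehicle replicate 1 above 10 ng/mL replicate 3, and not after TMM scaling. Asparagine synthetase, ASNS, had a log2 fold change of 0.15 (SE 0.052), PSAT1 of the serine route one of 0.19 (SE 0.072) and SHMT2 one of 0.14 (SE 0.049). ATF4 itself was at 390.2, 355 and 301 CPM with vehicle and at 416, 362 and 317 CPM with insulin (log2 fold change 0.07, SE 0.047). With 1 ng/mL insulin, which shares the vehicle libraries, 15 of the 20 were above 0 with a median of 0.05, and in epithelial cells with 10 ng/mL, 17 of 20 were above 0 with a median of 0.07.

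**Figure D3:**
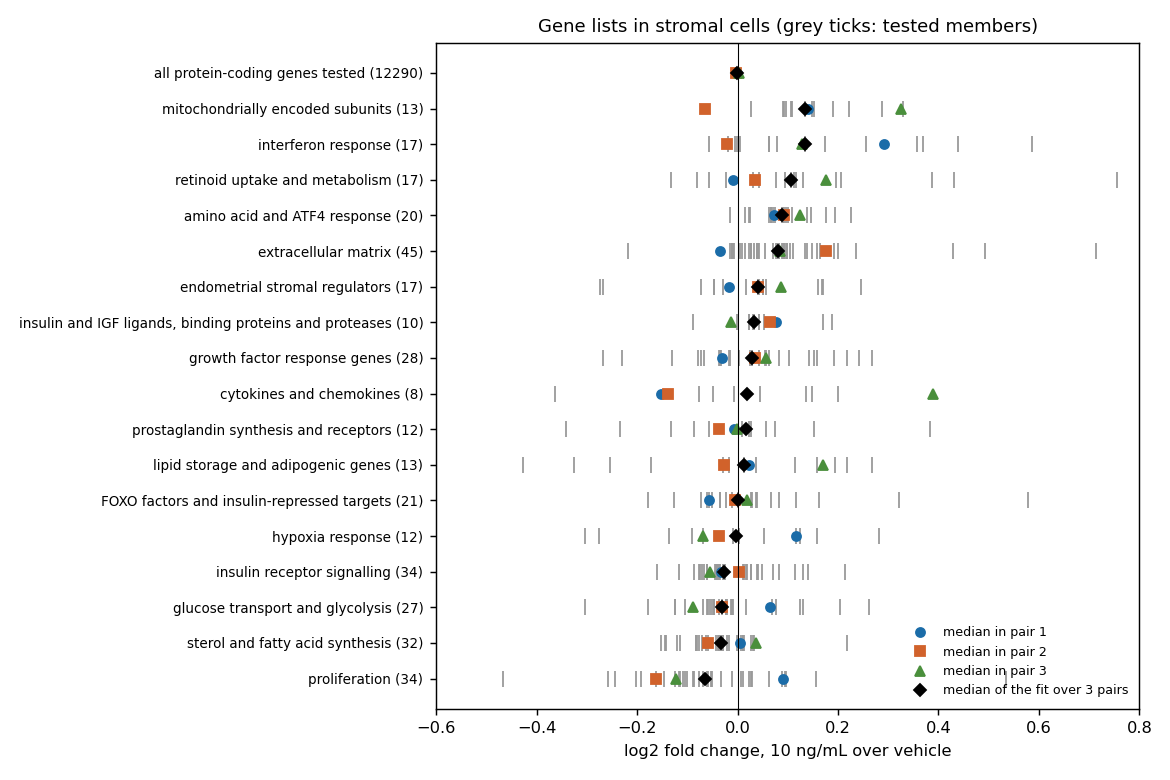
Log2 fold change of 10 ng/mL insulin over vehicle for 17 gene lists in stromal cells; grey ticks are the tested members (their number is in brackets, and 2 members lie beyond the axis), coloured symbols are medians in each pair and black diamonds medians of the fitted values. Only the amino acid list had medians above 0 in all 3 pairs, and only the prostaglandin list had medians below 0 in all 3. The medians of every other list, extracellular matrix, mitochondrial and interferon genes included, differed in sign between pairs.

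Extracellular matrix genes were above 0 for 39 of 45 tested members (86.7%, against 49.5% of all protein-coding genes), including 16 of 16 collagens and 14 of 14 glycoproteins and proteoglycans, with a median log2 fold change of 0.08, and none was called. The pairs differed, with medians of -0.04, 0.18 and 0.09 in pairs 1, 2 and 3. In pair 1 the insulin library held the higher epithelial marker sum and in pair 2 the vehicle library did (51.1 against 467 CPM, and 529 against 49.9 CPM), and the part of this in the pair medians was not tested. COL1A1, the main fibrillar collagen chain, was at 16540, 21900 and 28560 CPM with vehicle and at 16210, 25210 and 29640 CPM with insulin (log2 fold change 0.08, SE 0.091). COL8A1 was at 14.4, 50.5 and 4.33 CPM with vehicle and at 18.8, 57.4 and 8.74 CPM with insulin (log2 fold change 0.43, SE 0.14, unadjusted p = 0.0131). The matricellular protein POSTN was at 1791, 2922 and 820.3 CPM with vehicle and at 1840, 3384 and 1114 CPM with insulin (log2 fold change 0.24, SE 0.083), and DCN, the proteoglycan decorin, had a log2 fold change of 0.20 (SE 0.082).

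The matrix members with an unadjusted p below 0.05 were 5 of 45, all higher (1.72% of all protein-coding genes tested were), and beside COL8A1, POSTN and DCN they were ASPN (log2 fold change 0.49, SE 0.18) and FBLN1 (0.16, SE 0.061). In epithelial cells given 10 ng/mL insulin, 8 of 43 tested matrix genes were above 0, with a median log2 fold change of -0.09; with 1 ng/mL insulin in stromal cells, against the same vehicle libraries, 35 of 44 were above 0 with a median of 0.05.

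All 13 mitochondrially encoded subunits had a log2 fold change above 0, with a median of 0.13, although the pair medians were 0.14, -0.06 and 0.33. MT-ATP8, a subunit of ATP synthase, was at 31.4, 39.4 and 19.2 CPM with vehicle and at 40.5, 43.6 and 26.9 CPM with insulin (log2 fold change 0.33, SE 0.088, unadjusted p = 0.00493). MT-ND3, of complex I, was at 59.8, 101 and 38.03 CPM with vehicle and at 74.4, 102 and 57.1 CPM with insulin (log2 fold change 0.29, SE 0.094). COX1, of complex IV, was at 10700, 10750 and 7699 CPM with vehicle and at 11710, 10320 and 8830 CPM with insulin. Vehicle replicate 3 was the lowest library for all 3 genes. With 1 ng/mL insulin the median of the 13 genes over the same vehicle libraries was 0.35. MT-ATP8 overlaps MT-ATP6 on the mitochondrial genome, so reads of these genes cannot be fully separated.

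Retinoid genes, STRA6 included, had 13 of 17 members above 0 (76.5%, against 49.5% of all protein-coding genes tested) and a median log2 fold change of 0.11. The pair medians were -0.00816, 0.0345 and 0.177. With 1 ng/mL insulin, over the same vehicle libraries, 9 of 17 were above 0 (median 0.0482). In epithelial cells with 10 ng/mL, 3 of 17 were above 0 (median -0.0983). ALDH1A1, which makes retinoic acid, was at 1565, 3060 and 1443 CPM with vehicle and at 1813, 3080 and 1605 CPM with insulin (log2 fold change 0.13, SE 0.061). DHRS3, which returns retinal to retinol, was at 27.4, 29.1 and 10.51 CPM with vehicle and at 38.3, 25.6 and 22.8 CPM with insulin, higher in 2 of 3 pairs. The retinoid carrier FABP5 was below 4 CPM throughout (log2 fold change 0.75, SE 0.28).

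Growth factor response genes had a median of 0.03. DUSP6, a phosphatase induced by ERK signaling that feeds back on it, was at 56.9, 74.5 and 66.2 CPM with vehicle and at 72.3, 80.7 and 70.8 CPM with insulin (log2 fold change 0.19, SE 0.060, unadjusted p = 0.0109). The immediate early factor EGR3 was at 19.4, 33.5 and 36.6 CPM with vehicle and at 22.1, 39.3 and 42.5 CPM with insulin (log2 fold change 0.22, SE 0.076), and FOS had a log2 fold change of 0.06 (SE 0.062). Both DUSP6 and EGR3 were higher in 3 of 3 pairs, and their groups overlapped. Proliferation genes had a median of -0.06, with 11 of 34 above 0 and pair medians of 0.09, -0.16 and -0.12. Cyclin D1, CCND1, was at 305, 353 and 295 CPM with vehicle and at 313, 353 and 288 CPM with insulin, and CDC20, an activator of the anaphase-promoting complex, had a log2 fold change of 0.54 (SE 0.20) at levels of 1.45 to 6.81 CPM.

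No ovarian steroid receptor or other endometrial stromal regulator was called. The progesterone receptor PGR was at 16.6, 13.7 and 17.2 CPM with vehicle and at 16.4, 14.2 and 18.5 CPM with insulin (log2 fold change 0.05, SE 0.090). The estrogen receptor ESR1 was at 37.8, 27.2 and 30.0 CPM with vehicle and at 34.2, 29.2 and 33.5 CPM with insulin (log2 fold change 0.04, SE 0.092), and its sign changed without replicate 2 (-0.00536) or replicate 3 (-0.03). FST, the activin antagonist follistatin, was at 166, 97.1 and 18.4 CPM with vehicle and at 158, 48.7 and 25.9 CPM with insulin. Of 17 tested regulators, 11 were above 0, with a median of 0.04.

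Interferon genes had a median of 0.13 over 17 tested members, and it was 0.06 when epithelial-enriched genes were left out of the fit. IFIT1, an interferon-induced RNA-binding protein, was at 117, 129 and 38.8 CPM with vehicle and at 128, 142 and 57.6 CPM with insulin (log2 fold change 0.26, SE 0.085). IFI6 was at 2.97, 3.44 and 10.2 CPM with vehicle and at 24.6, 3.68 and 9.22 CPM with insulin, so that 10 ng/mL replicate 1, a library with epithelial transcripts, stood alone, and IFI6 was epithelial-enriched. OAS1Y, 1 of several similar OAS genes whose reads can be shared, had a log2 fold change of 1.13 (SE 0.40) at 0.362 to 5.30 CPM.

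The remaining lists were centered near 0. For 12 prostaglandin genes the median log2 fold change was 0.02, and PTGS2, the inducible cyclooxygenase, was at 54.9, 201 and 97.1 CPM with vehicle and at 48.9, 227 and 108 CPM with insulin. Hypoxia genes had a median of -0.00321 over 12, and VEGFA was at 134, 118 and 134 CPM with vehicle and at 168, 114 and 151 CPM with insulin (log2 fold change 0.16, SE 0.066). Lipid storage and adipogenic genes had a median of 0.01 over 13, and the triglyceride lipase PNPLA2 was at 16.2, 16.8 and 13.0 CPM with vehicle and at 21.1, 17.4 and 14.9 CPM with insulin (log2 fold change 0.22, SE 0.095). Cytokines and chemokines had a median of 0.02 over 8, and the neutrophil chemokine CXCL5 was at 225, 236 and 250.2 CPM with vehicle and at 201, 249 and 345 CPM with insulin.

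Genes were called when replicate 2 was left out, and most of them were epithelial transcripts. Without replicate 2, edgeR called 75 protein-coding genes, 74 higher (0.596% of those tested) and 1 lower (0.00806%). Of the 74 higher genes, 61 were epithelial-enriched, whereas epithelial-enriched genes made up 274 of the 12409 protein-coding genes tested. KRT7 had a log2 fold change of 4.94 (SE 0.27) in those 4 libraries and KRT8 one of 5.24 (SE 0.38). Over all 3 pairs the median log2 fold change of these 74 genes was 0.39, against 3.24 without replicate 2, and none was called. The called gene that was lower was GREM1, a BMP antagonist, at 188 and 296 CPM in vehicle replicates 1 and 3 and 154 and 206 CPM with insulin (log2 fold change -0.41, SE 0.071), whereas pair 2 went the other way, from 308 to 330 CPM. Without replicate 1 or without replicate 3 edgeR called 0 genes, with 576 and 181 at an unadjusted p below 0.05.

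**Figure D4:**
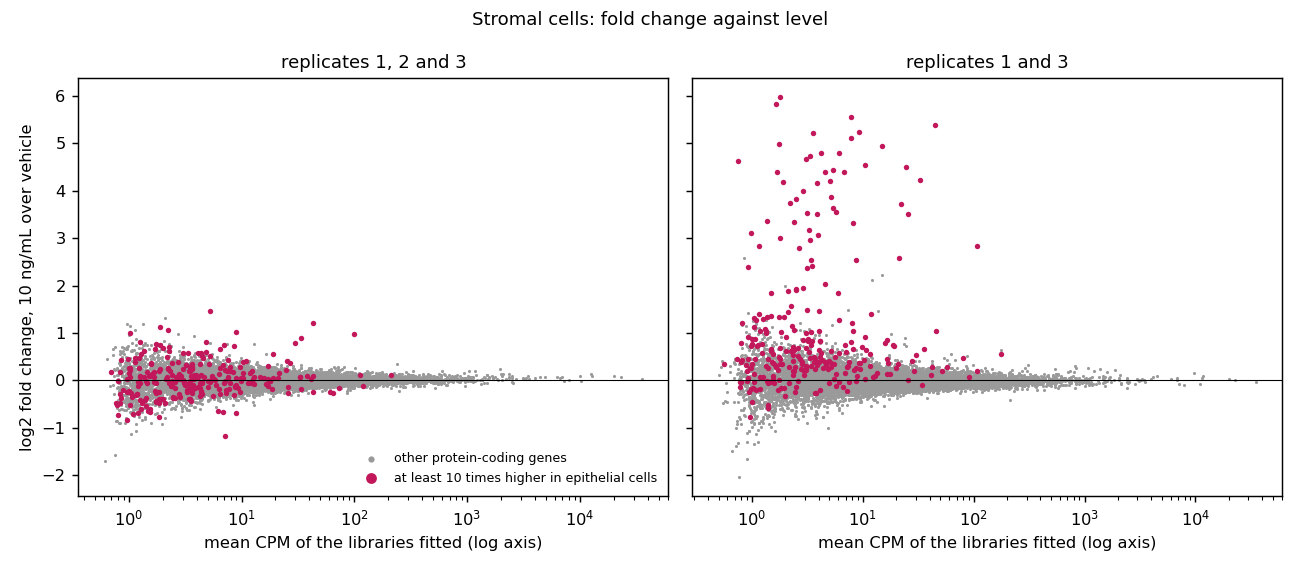
Log2 fold change against mean CPM (log axis) for protein-coding genes, over all 3 pairs (left) and without replicate 2 (right); magenta points are genes at least 10 times higher in epithelial than in stromal libraries at 5 mM glucose. With 3 pairs the values run from -1.70 to 1.47, and without replicate 2 the magenta points extend to 5.96.

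With the 268 tested epithelial-enriched genes left out of the fit, edgeR again called 0 of the remaining protein-coding genes. The smallest adjusted p was then 0.479, and 447 genes had an unadjusted p below 0.05, 276 higher and 171 lower. When 1 replicate number was left out as well, a setting chosen after seeing the data, 17, 7 and 8 genes were called without replicates 1, 2 and 3. Among those called without replicate 1 were the glucose transporter SLC2A1, at 48.4 and 33.6 CPM in vehicle replicates 2 and 3 and 14.2 and 25.2 CPM with insulin, and the plasminogen activator PLAU, at 67.3 and 18.0 CPM with vehicle and 19.0 and 18.0 CPM with insulin. In pair 1 both went the other way, SLC2A1 from 21.6 to 48.3 CPM and PLAU from 15.0 to 45.1 CPM, so their high libraries were again vehicle replicate 2 and 10 ng/mL replicate 1. SLC2A1 and PLAU were 4.38 and 6.001 times higher in epithelial than in stromal libraries at 5 mM glucose, below the limit of 10 used here. Of the 17, 7 and 8 called genes, 6, 5 and 5 were at least 2 times higher there. The shares of called genes and of genes at least 2 times higher, among all genes tested in these fits, are not given here. The counts therefore cannot be set against them. F3, tissue factor, was called without replicate 3 (log2 fold change 0.51, SE 0.073, edgeR adjusted p = 6e-09), at 82.0 and 395 CPM with vehicle and at 205 and 347 CPM with insulin, which is higher in pair 1 and lower in pair 2. These genes, and GREM1, CEBPB and FAP, were named after their values were seen.

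Other genes in these calls were not high in both of those libraries. CEBPB, a transcription factor that is also induced during decidualization, was at 45.0, 31.2 and 33.0 CPM with vehicle and at 40.7, 44.4 and 45.1 CPM with insulin, and was called in the same setting without replicate 1 (log2 fold change 0.50, SE 0.093) but not over all pairs (0.27, SE 0.13). The fibroblast protease FAP was at 49.7, 72.4 and 54.9 CPM with vehicle and at 49.5, 80.7 and 87.5 CPM with insulin, and was called there too (log2 fold change 0.42, SE 0.088). AKAP8, described above, was also called there (log2 fold change -0.71, SE 0.15, edgeR adjusted p = 0.0115, against a range of 0.0115 to 1 over 14 alternatives). Without vehicle replicate 2 and 10 ng/mL replicate 1, and then without the pairing, edgeR called 0 genes, with 265 at an unadjusted p below 0.05.

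The response of stromal cells was also set against that of the epithelial cells of the same experiment, with the difference of the 2 log2 fold changes tested in 12 libraries. Of 13308 protein-coding genes, 0 were called (0%), 539 had an unadjusted p below 0.05, and DESeq2 called 0 with 92. Without replicate 1 the test called 42 genes and without replicate 2 it called 166, of which 35 and 147 were epithelial-enriched. Genes could pass the filter of these fits through their epithelial level alone. The shares of called and of epithelial-enriched genes among those tested in these fits are not given here, so the counts cannot be set against them. IGFBP6 had a log2 fold change of 0.17 in stromal and -0.14 in epithelial cells (p of the difference 0.0061, edgeR adjusted p = 1), and STRA6 had one of 0.21 and -0.11 (p of the difference 0.0517).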

How the data were processed

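RNA was measured in 6 stromal libraries (3 with 10 ng/mL insulin, 3 with vehicle), and 3 stromal 1 ng/mL, 6 epithelial insulin and 6 libraries of the 5 mM glucose group served as references. The deposited values are raw counts per gene: the authors trimmed single-end reads from stranded libraries with Cutadapt, aligned them to the cow genome with Rsubread, kept unique alignments and counted them per Ensembl gene with featureCounts. The strand setting of the counting is not given in the sources used here, so a gene and an overlapping antisense gene may share counts. The deposited DESeq2 tables hold the authors' comparisons, of which gene symbols and types alone were used. A gene's type was thus known only where those tables list it. No coordinates or sequences are given, since no genome of the build used was at hand.

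Genes kept by filterByExpr were tested with edgeR 4.0.16 (TMM, quasi-likelihood F test, replicate number as a block, as in the study's paired design), with Benjamini-Hochberg adjustment over all 12779 genes tested. A gene was called at an adjusted p below 0.05 and a log2 fold change beyond 0.1, and protein-coding genes were counted. Levels are CPM, counts scaled to a library total of 1000000 and not corrected for length, so they compare libraries and not genes. Directions within pairs, and the shares of genes whose groups did not overlap, were read after TMM scaling. Libraries with the same number deviated together from their group means (correlation 0.426, 0.216 and 0.638 for numbers 1, 2 and 3, at most 0.0543 between numbers), so the numbers pair the samples. The study calls the replicates biological, which animals they came from is not given in the sources used here, and p-values measure the spread between these libraries. The limits that a count of 0 allows cover counting error only, and the 95% intervals of fold changes come from the edgeR fit and include the spread between libraries.

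Named genes were: up to 10 in each direction with the smallest unadjusted p at 5 CPM or more, the 5 with the largest fold in each direction, IGFBP6, STRA6, PGR, ESR1, list members with the smallest p or the highest level, and cell type markers. A few genes called in alternatives, and a few list members shown for their role, were named after their values were seen. A gene that the rule selected is not reported here. The members and lists were chosen with earlier results of these data known. Listed genes number 411 symbols, of which 394 were found in the table. The scripts were tested on simulated data. Alternatives were DESeq2 1.42.0, no block, other scaling and filters, all 9 stromal insulin libraries in 1 fit, each replicate number left out, and epithelial-enriched genes left out.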

Additional observations from a re-analysis of the deposited data

Results flagged for a closer look

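For 4 of the genes named, all 3 stromal pairs moved one way with 10 ng/mL insulin and all 3 epithelial pairs the other way. AKAP8, TTC39C and RCN3 were named for their stromal values, and IGFBP6 because the study named it from these samples. The p-values of the difference reuse those stromal values and are not independent of that choice. The share of all genes with such opposite directions is not given here. AKAP8 had -0.522 in stromal and 0.206 in epithelial cells (edgeR, p of the difference 0.00125). TTC39C had 1.19 and -0.0784 (p of the difference 0.00181), at no more than 2.46 CPM in the stromal libraries. The epithelial value of TTC39C was smaller than its SE of 0.165 (edgeR, unadjusted p = 0.638), so it cannot be told from 0. RCN3 had 0.185 and -0.283 (p of the difference 0.00251). IGFBP6 had 0.169 and -0.137 (p of the difference 0.0061). The adjusted p over all genes tested was 1 for each of the 4, none passed the correction, and 539 protein-coding genes had an unadjusted p of the difference below 0.05.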

How the results depend on the processing

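The count of called genes was 0 without the replicate block (37 at an unadjusted p below 0.05, 336 with it), with paired DESeq2 (20), with DESeq2's size factors (337), with every gene of at least 1 count (396), with at least 1 CPM in 3 of 6 libraries (338), in 1 fit of all 9 stromal libraries (367) and with epithelial-enriched genes left out (447). It was 0 to 75 when 1 replicate number was left out, and the 75 came without replicate 2. With epithelial-enriched genes left out as well, it was 7 to 17, and 17, 7 and 8 without replicates 1, 2 and 3. Without vehicle replicate 2 and 10 ng/mL replicate 1, with no block, it was 0. This setting and the one before it were added after seeing the data, and the former compares different replicate numbers. The count for the difference between stromal and epithelial cells was 0 without the block (65 at an unadjusted p below 0.05), with DESeq2, with its size factors and with every gene of at least 1 count, and 0 to 166 when 1 number was left out (42 without replicate 1, 166 without replicate 2).

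For 33 named genes under 14 alternatives, 431 of 441 values kept their direction and their side of the threshold, 7 changed sign and 3 passed the threshold. Without replicate 1, LCP1 became -0.963, and without replicate 2, EDNRB became 1.00. Over the fits without 1 number, LCP1 ran from -0.963 to 4.39, EDNRB from -3.52 to 1.00, and ESR1 from -0.026 to 0.152. ESR1 became -0.00536 without replicate 2 and -0.026 without replicate 3, -0.00388 and -0.0273 in the same fits with epithelial-enriched genes left out, and -0.0334 without the 2 libraries with epithelial transcripts. LCP1 (4.39) passed the threshold without replicate 2, and AKAP8 (-0.705) and COLEC12 (1.53) without replicate 1 and epithelial-enriched genes. The cause was not tested. Of 238 list medians, 215 moved by less than the spread between pairs, and the interferon median ran from -0.0401 to 0.309. With 3 pairs, differences near the median SE of 0.0959 could not be called. Larger ones were not called either, such as BMP6 at 0.469 (SE 0.11, edgeR adjusted p = 0.999).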

Other observations

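Among genes that do not code for protein, none was called either. A gene annotated as misc_RNA of the Rfam family RF00017 (ENSBTAG00000047359), the RNA of the signal recognition particle, was at 65.5, 36.9 and 74.7 CPM with vehicle and at 217, 79.1 and 83.5 CPM with 10 ng/mL insulin. It was higher in 3 of 3 pairs (log2 fold change 1.02, SE 0.23, unadjusted p = 0.0016, edgeR adjusted p = 0.999), and the 10 ng/mL replicate 1 stood above the other libraries. In epithelial cells its log2 fold change was -0.67. Another gene of the family, ENSBTAG00000048346, was at 461, 424 and 503 CPM with vehicle and at 446, 334 and 439.5 CPM with 10 ng/mL insulin. That gene was lower in 3 of 3 pairs (log2 fold change -0.19, SE 0.058). The family has many near-identical copies, so these counts are uncertain. The long noncoding RNA gene ENSBTAG00000051191 was at 64.9, 64.1 and 64.8 CPM with vehicle and at 55.1, 56.0 and 53.9 CPM with 10 ng/mL insulin, without overlap (log2 fold change -0.23, SE 0.054). In the 1 ng/mL libraries it was at 64.5, 39.8 and 73.8 CPM.

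Some genes of matrix turnover were high in the libraries with epithelial transcripts. The collagenase gene MMP1 was at 0.350, 5.07 and 1.19 CPM with vehicle and at 6.05, 1.05 and 0.288 CPM with 10 ng/mL insulin, and the hyaluronan synthase gene HAS3 was at 4.64, 11.2 and 5.31 CPM and at 7.72, 2.98 and 3.56 CPM. In both genes vehicle replicate 2 was the highest vehicle library and 10 ng/mL replicate 1 the highest insulin library. The stromelysin gene MMP3 was at 35.8, 159 and 96.8 CPM with vehicle and at 43.9, 108 and 78.3 CPM with insulin, so that replicate 2 was highest in both groups. At 5 mM glucose the level in epithelial over stromal libraries was 8.72 for HAS3, but 1.03 for MMP1 and 0.475 for MMP3. The part of the epithelial transcripts in these levels was not tested.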
